A study of Mus musculus with 12 samples.

Results

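The Dmrt genes encode transcription factors that share the DM domain. The 8 members followed here were Dmrt1, Dmrt2, Dmrt3, Dmrta1, Dmrta2, Dmrtb1, Dmrtc1a and Dmrtc2. Dmrtc1b and Dmrtc1c2 were also named on the array but were not among the members. The 8 members were taken by symbol, through the RefSeq accession of each probe, from 19751 genes named on the array. Each was represented by 1 probe, and all 8 were among the 15369 genes tested. The measurements came from medial telencephalon of CD-1 mouse embryos that had been electroporated at E11.5 (embryonic day) together with a vector for nuclear EGFP. GFP-positive cells were sorted 24 hours later, at E12.5. Of the 4 groups, 2 received siRNAs against both Dmrt3 and Dmrta2 (set 1 and set 2), 1 received an expression plasmid for Dmrta2, and 1 received control siRNAs. Each group had 3 independent replicates. The control siRNAs served as reference for the plasmid too, and no array held an empty plasmid. The labels do not say how many embryos gave 1 replicate, and the sort selects transfected cells, not a cell type.

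The DM domain is an intertwined zinc-binding fold that contacts DNA through the minor groove, and it is named after the fly gene doublesex and the worm gene mab-3, which direct sexual differentiation. In vertebrates the family has spread beyond the gonad: several members work in the testis and germ line, Dmrt2 acts in the somites, and Dmrt3, Dmrta1 and Dmrta2 are made by progenitors of the dorsal telencephalon. There Dmrt3 and Dmrta2 form a gradient that is high near the cortical hem, the signalling centre at the medial edge of the cortex, and both are needed for the medial cortical territory that includes the hippocampus. Dmrt1, Dmrt3 and Dmrt2 neighbour each other on chromosome 19.

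The promoters of the 2 siRNA targets and of the relatives Dmrta1 and Dmrtb1, the other members on which the comparisons below turn, are shown to allow their sequence to be set beside those results. They are the 250 bases before the annotated start in RefSeq (GRCm38.p6), written 5′ to 3′ along the gene's strand. Dmrt3 lies at chr19:25610287-25610536 on the plus strand, Dmrta2 at chr4:109977775-109978024 on the plus strand, Dmrta1 at chr4:89687948-89688197 on the plus strand and the first listed promoter of Dmrtb1 at chr4:107683590-107683839 on the minus strand. Capitals mark a match to ACAATGT or its reverse complement ACATTGT, letters of the core site of DM-domain proteins.
Dmrt3: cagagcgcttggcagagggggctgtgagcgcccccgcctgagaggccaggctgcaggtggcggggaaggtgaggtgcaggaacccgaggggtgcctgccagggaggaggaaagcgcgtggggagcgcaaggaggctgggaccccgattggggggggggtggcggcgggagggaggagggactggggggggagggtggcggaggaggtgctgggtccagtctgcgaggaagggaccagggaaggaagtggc
Dmrta2: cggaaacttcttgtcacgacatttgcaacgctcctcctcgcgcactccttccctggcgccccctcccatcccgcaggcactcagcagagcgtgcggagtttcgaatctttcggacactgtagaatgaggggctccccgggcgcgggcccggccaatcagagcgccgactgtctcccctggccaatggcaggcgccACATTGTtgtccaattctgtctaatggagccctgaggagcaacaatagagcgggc
Dmrta1: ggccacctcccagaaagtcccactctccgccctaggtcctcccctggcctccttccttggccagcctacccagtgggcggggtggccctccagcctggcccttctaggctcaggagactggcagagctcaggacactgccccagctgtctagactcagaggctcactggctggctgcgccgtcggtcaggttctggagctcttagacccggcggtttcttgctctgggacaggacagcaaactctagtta
Dmrtb1: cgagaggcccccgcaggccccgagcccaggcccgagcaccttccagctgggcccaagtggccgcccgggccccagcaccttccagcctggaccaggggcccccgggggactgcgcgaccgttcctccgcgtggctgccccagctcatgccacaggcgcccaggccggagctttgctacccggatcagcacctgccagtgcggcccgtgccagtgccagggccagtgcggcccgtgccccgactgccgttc

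Of these, Dmrta2 alone held the core, once, in the reverse complement, with its first base at position -55 counted from the start. Searched on both strands, the same letters occurred in 2.56% of 32851 RefSeq promoters of this length. Promoters were listed for 7 of the 8 members, 10 promoters in all, and 1 of the 10 held a match. The G and C content was 72.4% for the Dmrt3 window, 61.6% for Dmrta2, 63.6% for Dmrta1 and 75.6% for the Dmrtb1 window shown. The second listed promoter of Dmrtb1, at chr4:107684231-107684480 on the minus strand and not shown, had 42.4%. A match is a description of these windows and does not show that a factor binds there.

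A level here is the log2 processed signal of the probe minus the 75th percentile of its array, so 0 is the 75th percentile itself. Levels are compared between arrays for 1 probe and not between probes. Exceptions are the within-array difference of Dmrt3 and Dmrta2 and the summed levels of marker lists, which combine probes. No spot was saturated, and the share well above background ran from 67.1% to 72.2% over the 12 arrays. The telencephalon markers Emx1, Emx2 and Lhx2 and all 7 neural progenitor markers were well above background on every array. The arrays lay on 3 slides, each with 1 array of every group and always at the same position, so position on the slide and group cannot be told apart. The slide carried the replicate number, and differences within each slide are given beside the tests. In sorted pools such as these, fewer cells that make a transcript and less transcript per cell cannot be told apart.

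Dmrt1, Dmrt3, Dmrta1, Dmrta2 and Dmrtb1 were well above background on all 12 arrays. The signals of Dmrt2, Dmrtc1a and Dmrtc2 reached that mark on 8, 4 and 4 arrays. The plot of levels by array shows each member in every group.

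**Figure D1:**
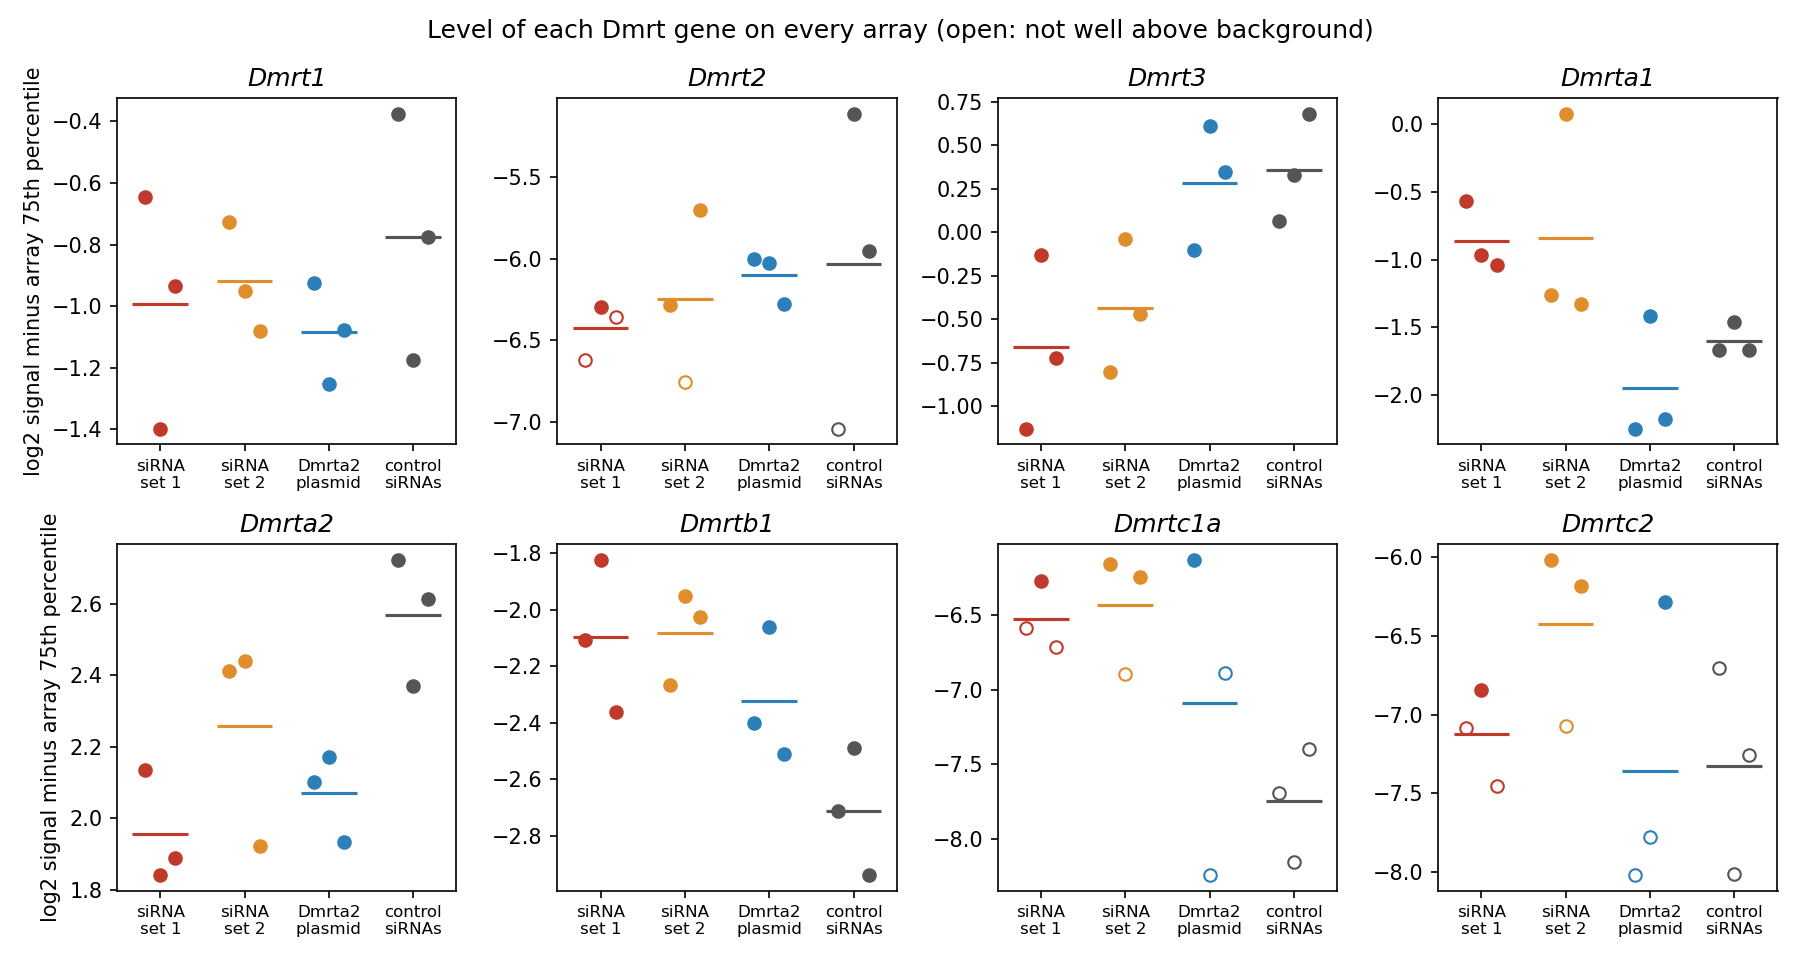
Level of each of the 8 Dmrt genes (log2 signal minus the 75th percentile of the array, one scale per panel) on each of the 12 arrays, in replicate order within a group; lines are group means, and open points were not well above background. All 6 siRNA points lie below all 3 control points for Dmrt3 and above them for Dmrta1 and Dmrtb1.

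The first comparison asks what the siRNAs did to the transcripts they were designed against. Dmrt3, which is known for its role in spinal interneurons that set gait and in the medial cortex, had levels of -1.13, -0.13 and -0.72 with siRNA set 1 and -0.81, -0.04 and -0.47 with set 2, against 0.06, 0.33 and 0.68 with control siRNAs. All 6 siRNA arrays lay below all 3 control arrays, and in both sets the second replicate was the highest. The log2 difference of both sets from control was -0.91 ± 0.26 (SE, n = 6 against 3, 95% interval -1.47 to -0.34), which left 53.4% of the control level. Within the slides it was -1.03, -0.41 and -1.28, so each slide gave a lower Dmrt3 signal and the second slide the smallest difference. Adjusted over all genes, the difference missed the threshold of 0.05 (limma, adjusted p = 0.162) but passed it when the slide entered the fit as a block (limma, adjusted p = 0.0283).

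Taken alone, set 1 differed from control by -1.02 ± 0.30 for Dmrt3 (n = 3 against 3, limma adjusted p = 0.235, or 0.0414 under the block). For set 2 the difference was -0.80 ± 0.30 (limma, adjusted p = 0.279, and 0.05 with the block, not under the threshold). Set 2 stood 0.22 ± 0.30 above set 1 (95% interval -0.43 to 0.88), a range that includes 0 and also a difference as large as that of set 2 from control.

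Dmrta2, also called Dmrt5 and required for the cortical hem and the hippocampus, gave 2.13, 1.84 and 1.89 with set 1 and 2.41, 2.44 and 1.92 with set 2, against 2.72, 2.37 and 2.61 with control siRNAs. The 3 arrays of set 1 lay below all controls, while 2 of the 3 arrays of set 2 overlapped the lowest control. The difference of both sets from control was -0.46 ± 0.14 (n = 6 against 3, 95% interval -0.78 to -0.15), or 72.6% of the control level. It missed the threshold with limma (adjusted p = 0.204, or 0.112 under the block). Within slides the average of both sets differed by -0.45, -0.23 and -0.71, and on the second slide set 2 stood 0.07 above its control array. Set 2 lay 0.30 ± 0.16 above set 1 for Dmrta2 (limma, adjusted p = 0.619, 95% interval -0.06 to 0.67).

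Whether the siRNAs moved the targets by unequal amounts was tested on the difference between the Dmrt3 and Dmrta2 levels of each array, which averaged -2.66 ± 0.50 on siRNA arrays and -2.21 ± 0.39 on control arrays (SD, n = 6 and 3). The means differed by -0.44, the Dmrt3 signal being the more reduced, with a two-sided exact permutation p of 0.25 over 84 groupings, whose smallest possible p is 0.0119. The test takes no account of the slide, or of any unequal response of the probes of the targets. Within the slides the siRNA arrays differed from control by -0.58, -0.18 and -0.57 on this measure, and 5 of the 6 siRNA arrays lay below the control array of their slide.

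Relatives that no siRNA was designed against were measured on the same arrays. Dmrta1, also called Dmrt4 and made in the dorsal telencephalon alongside the targets, had levels of -0.57, -0.97 and -1.04 with set 1 and -1.26, 0.08 and -1.33 with set 2, against -1.67, -1.46 and -1.67 with control siRNAs. All 6 siRNA arrays lay above all 3 control arrays, whose spread was narrow, and the second replicate of set 2 stood far above the other 2 of its set. The difference was 0.75 ± 0.31 (n = 6 against 3, 95% interval 0.07 to 1.43), with 0.75, 1.02 and 0.48 within the slides, and it missed the threshold (limma, adjusted p = 0.352, or 0.179 under the block). Set 1 gave 0.74 ± 0.35 and set 2 0.76 ± 0.35, but without its second replicate set 2 gave 0.30.

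Dmrtb1, also called Dmrt6, is known from male germ cells, where it acts at the switch from mitosis to meiosis. Its levels were -2.11, -1.82 and -2.36 with set 1 and -2.27, -1.95 and -2.03 with set 2, against -2.71, -2.49 and -2.94 with control siRNAs. Again all 6 siRNA arrays lay above all 3 controls, here with a difference of 0.62 ± 0.16 (n = 6 against 3, 95% interval 0.27 to 0.97). The slides gave 0.53, 0.60 and 0.75. The difference missed the threshold (limma, adjusted p = 0.118), passed it under the block (limma, adjusted p = 0.0283), and shrank to 0.29 when background was modelled with normexp (limma, adjusted p = 0.541). That setting adds an offset of 50 to the signals, which by itself narrows log2 differences of low signals. The share of the shrinkage due to the offset was not tested. Set 1 and set 2 differed from control by 0.62 ± 0.18 and 0.63 ± 0.18, and set 2 passed with the block (limma, adjusted p = 0.0343) while set 1 did not (limma, adjusted p = 0.057).

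Dmrt1, which sustains male identity in the testis, read -0.65, -1.40 and -0.94 with set 1 and -0.73, -0.95 and -1.08 with set 2, against -0.38, -1.18 and -0.77 with control siRNAs. The groups overlapped, and the first replicate was the highest and the second the lowest in set 1 as in the controls. The difference of both sets was -0.18 ± 0.20 (95% interval -0.63 to 0.26, limma adjusted p = 0.827).

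The 3 dim members gave no fold that could be read. Dmrt2, which patterns the somites, ranged from -6.75 to -5.70 with the siRNAs, where 3 of 6 arrays gave a signal well above background, and from -7.04 to -5.11 with control siRNAs, where 2 of 3 did. Dmrtc2, also called Dmrt7 and needed for meiosis in the male germ line, reached that mark on 3 of 6 arrays with siRNAs and 0 of 3 with control siRNAs. Dmrtc1a, an X-linked member, did so on 3 of 6 and 0 of 3. The siRNA levels of Dmrtc1a, -6.90 to -6.16, all lay above the control levels, -8.15 to -7.40, as for 3.23% of all genes. Dmrtc1a entered the test through 3 siRNA arrays and 1 array labelled Dmrta2 overexpression, so this order is not read as a difference. The control levels of both genes are only bounds, and against the lowest measurable signal of those arrays the fold came to less than 1, so none is given. A probe of Dmrtc1b, a close copy of Dmrtc1a, was well above background on 2 of 12 arrays. For Dmrtc1c2, another near copy, 1 probe was well above background on all 12 arrays and another on 0. The array's probes cannot be assumed to separate such copies.

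By limma, 0 of the 8 members passed the threshold in the comparison of both sets with control, where 0.67% of all genes tested passed. Of the 5 members measured on all arrays, 4 (Dmrt3, Dmrta1, Dmrta2 and Dmrtb1) had an unadjusted p under 0.05, against 12.1% of all genes. The arrays of Dmrta1 and Dmrtb1 did not overlap in the higher direction, where 3.23% of all genes did the same, and those of Dmrt3 did not overlap in the lower direction, where 2.09% did. The dim members are left out of these counts, since Dmrtc1a and Dmrtc2 had no control array well above background. Dmrt2, which had 2 of 3, is left out as well (limma, unadjusted p = 0.419). The shares here and below are over all 15369 genes tested, dim ones included. With the slide as a block, 2 members passed (Dmrt3 and Dmrtb1), against 1.52% of all genes.

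For set 1 alone limma called 0 of 8 members (0.234% of all genes), and 3 of the 5 measured on all arrays had an unadjusted p under 0.05 (10% of all genes). Among these 5, its arrays did not overlap the controls in the higher direction for 2 (7.41% of all genes) and in the lower direction for 2 (7.31% of all genes). For set 2 alone it called 0 of 8 (1.02% of all genes), and 2 of the 5 had an unadjusted p under 0.05 (12.8% of all genes). There 2 of the 5 lay wholly above the controls (10.1% of all genes) and 1 wholly below (7.87% of all genes). With the block, Dmrt3 was the 1 member past the threshold in set 1 (0.742% of all genes) and Dmrtb1 the 1 member in set 2 (2.37% of all genes). Between set 2 and set 1, limma called 0 of 8 members, beside 0.0781% of all genes, and 0 had an unadjusted p under 0.05, beside 9.77%.

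**Figure D2:**
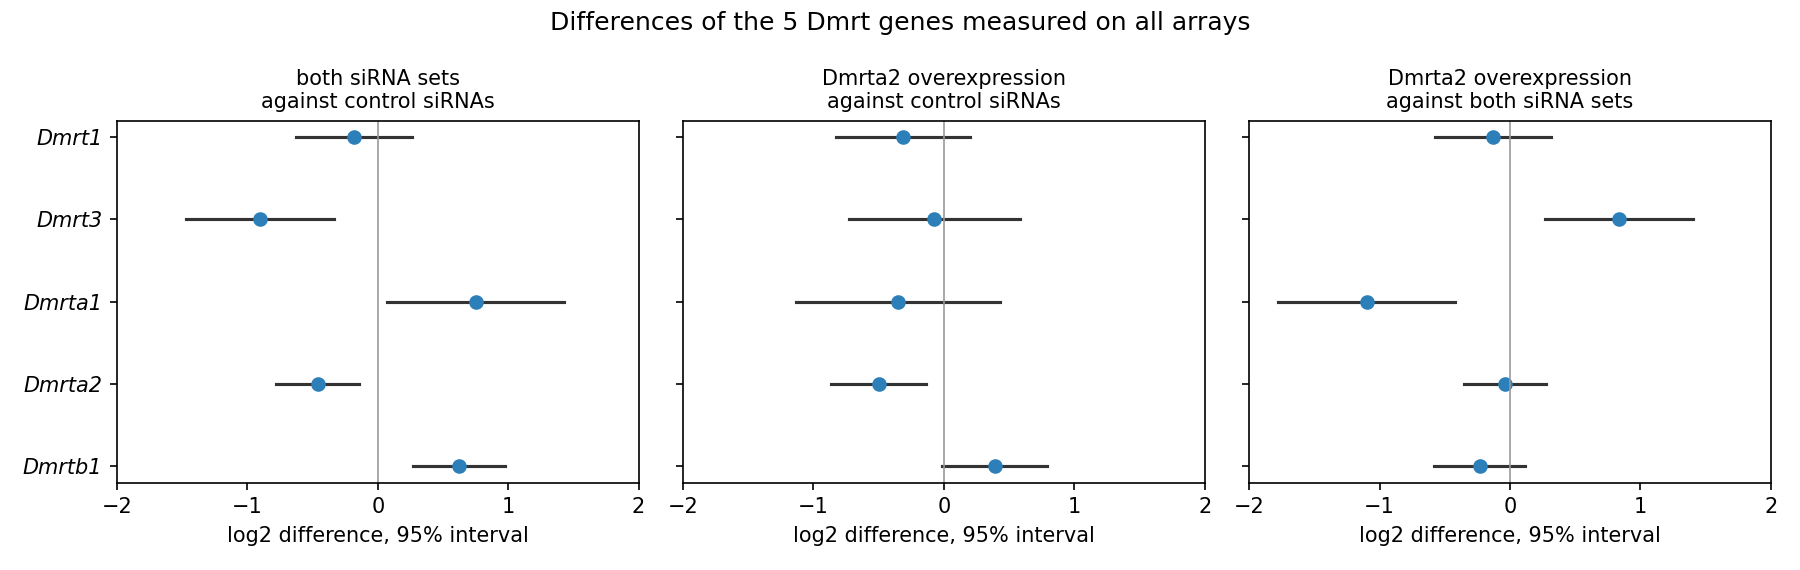
Log2 differences of the 5 members measured on all 12 arrays, with 95% intervals from limma, in 3 comparisons. In the siRNA comparison Dmrt3 and Dmrta2 lie below 0 and Dmrta1 and Dmrtb1 above it; in the arrays labelled Dmrta2 overexpression against control, the interval of Dmrta2 alone leaves out 0, on the lower side.

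The arrays labelled Dmrta2 overexpression ask the reverse question. The Dmrta2 probe read 2.10, 2.17 and 1.93 in these arrays, against 2.72, 2.37 and 2.61 with control siRNAs. All 3 lay below all 3 controls, opposite to the label. The difference was -0.50 ± 0.16 (n = 3 against 3, 95% interval -0.86 to -0.14, limma adjusted p = 0.574), with -0.62, -0.20 and -0.68 within slides. Whether the probe lies in the sequence that the plasmid carries is not given in the sources used here. The probe alone therefore does not check the plasmid.

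Dmrt3 in the arrays labelled Dmrta2 overexpression was at -0.10, 0.61 and 0.34, against 0.06, 0.33 and 0.68 in controls, and the groups overlapped. Its difference was -0.07 ± 0.30 (95% interval -0.73 to 0.58, limma adjusted p = 1.00), a range that includes a fall of the size seen for Dmrta2 in the same arrays. Dmrta1 gave -2.25, -1.42 and -2.18, against -1.67, -1.46 and -1.67 in controls. On that gene 2 of the 3 arrays lay below all controls and 1 above them, and the difference was -0.35 ± 0.35 (95% interval -1.13 to 0.43, and -0.61 to -0.20 when 1 array was left out at a time). Dmrtb1 read -2.40, -2.06 and -2.51 and differed from control by 0.39 ± 0.18 (95% interval -0.01 to 0.79). It stood above the control array of its slide on all 3 slides, as it did with both siRNA sets, and these comparisons share their control arrays. Dmrt1 differed by -0.31 ± 0.23 (95% interval -0.82 to 0.20, and -0.51 to -0.11 when 1 array was left out at a time).

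By limma 0 of 8 members passed in this comparison, beside 0.273% of all genes, and 1, Dmrta2, had an unadjusted p under 0.05, beside 4.44% of all genes. The arrays of 1 member, again Dmrta2, did not overlap in the lower direction, as for 1.87% of all genes. With the block, 0 of 8 passed, beside 0.332% of all genes.

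Set against both siRNA sets, the arrays labelled Dmrta2 overexpression had lower Dmrta1 signals. All 3 values lay below all 6 siRNA values, with a difference of -1.10 ± 0.31 (n = 3 against 6, 95% interval -1.78 to -0.42) and -1.33, -0.97 and -0.99 within slides. The difference missed the threshold (limma, adjusted p = 0.11, or 0.0557 under the block). Dmrt3 stood 0.83 ± 0.26 higher than in the siRNA arrays, with 0.86, 0.70 and 0.94 within slides, which passed only with the block (limma, adjusted p = 0.152, 0.02 with it). For Dmrta2 no difference was detectable (-0.04 ± 0.14, 95% interval -0.35 to 0.28). Here 0 of 8 members passed with limma, beside 2.15% of all genes, 2 (Dmrt3 and Dmrta1) had an unadjusted p under 0.05, beside 13.3%, and 1 passed with the block, beside 3.43% of all genes. The arrays of 1 member, Dmrta1, did not overlap in the lower direction, as for 3.34% of all genes.

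**Figure D3:**
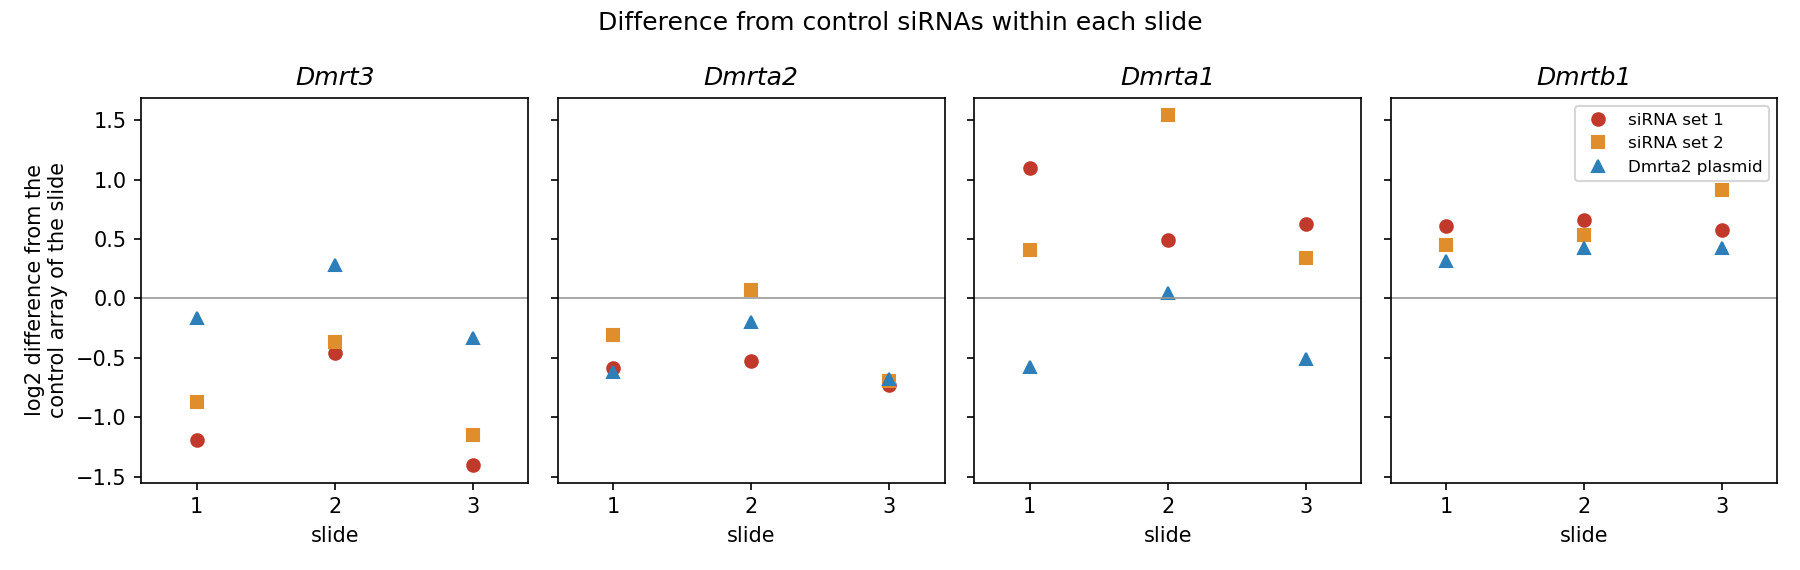
Log2 difference of siRNA set 1, siRNA set 2 and the arrays labelled Dmrta2 overexpression (Dmrta2 plasmid) from the control array of the same slide, for 4 Dmrt genes; slides have no order. Dmrt3 is lower with both siRNA sets on all 3 slides, by the least on slide 2, and Dmrtb1 lies above 0 in every one of the 9 differences.

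The order of the groups by mean level is given here for the members measured on all arrays (SD, n = 3 each). Dmrt3 averaged -0.66 ± 0.50 with set 1, -0.44 ± 0.39 with set 2 and 0.28 ± 0.36 in the arrays labelled Dmrta2 overexpression, against 0.36 ± 0.31 with control siRNAs. Between neighbours in that order, only the step from set 2 to the arrays labelled Dmrta2 overexpression exceeded the larger of the SDs. Dmrta2 averaged 1.95 ± 0.16 with set 1, 2.26 ± 0.29 with set 2 and 2.07 ± 0.12 in the arrays labelled Dmrta2 overexpression, against 2.57 ± 0.18 with control siRNAs. Control was highest, set 2 next, and only the step between these exceeded the larger SD. Dmrta1 averaged -0.86 ± 0.25 with set 1, -0.84 ± 0.79 with set 2 and -1.95 ± 0.46 in the arrays labelled Dmrta2 overexpression, against -1.60 ± 0.12 with control siRNAs. The siRNA sets stood highest and the arrays labelled Dmrta2 overexpression lowest, and only the step from set 1 down to control was beyond the larger SD. Dmrtb1 averaged -2.10 ± 0.27 with set 1, -2.08 ± 0.17 with set 2 and -2.32 ± 0.23 in the arrays labelled Dmrta2 overexpression, against -2.71 ± 0.23 with control siRNAs. Control was lowest, and only its step to the arrays labelled Dmrta2 overexpression exceeded the larger SD. For Dmrt1 no step exceeded it.

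The genes most like the targets over the 12 arrays were taken by Pearson correlation among 13337 genes well above background on every array. For Dmrt3 these were Hif1an (r = 0.929), Myo1d (0.919), Tmem248 (0.915), Smarcd2 (0.914) and Zw10 (0.905), and for Dmrta2 Olfr578 (0.869), Spice1 (0.863), Arl6 (0.863), Efcab14 (0.86) and Kcna3 (0.857). The highest of so many correlations over 12 points is large whatever the genes are, and the points share slides and groups. The 10 differed from control by -0.56 to -0.14 with both siRNA sets, and none passed the threshold. Both targets were lower in the siRNA arrays, so differences below 0 follow from choosing genes by likeness to them. Dmrta2 itself was at rank 3324 for Dmrt3 (r = 0.31, and 0.56 once the mean of each slide was removed).

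Genes of the dorsal and medial pathways in which Dmrt3 and Dmrta2 work were read from pathway lists, as background to the members. Of 9 dorsal telencephalic regulators, 0 passed in either direction with both siRNA sets against control, with a median difference of 0.02 beside -0.01 over all genes. Pax6, the homeobox gene of cortical progenitors that is highest laterally, opposite to the Dmrt gradient, differed by 1.06 ± 0.27 with both sets, with all 6 arrays above the controls (limma, adjusted p = 0.118, or 0.038 under the block). It was also the 1 of 9 to pass in the arrays labelled Dmrta2 overexpression against both siRNA sets, where it was lower (-1.52 ± 0.27, limma adjusted p = 0.0173). Against control siRNAs, Pax6 in those arrays differed by -0.46 ± 0.31 and did not pass. Emx2, a homeobox gene that acts with Dmrta2 in the medial cortex, differed by -0.17 ± 0.12 with the siRNAs, Emx1 by -0.03 ± 0.17 and Lhx2 by -0.13 ± 0.14.

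The cortical hem and midline list holds Wnt, BMP and R-spondin signals of the medial edge of the telencephalon and the homeobox genes Lmx1a and Msx1, which are made there. With both siRNA sets 0 of 10 passed and 5 lay above 0, with a median of 0.08. In the arrays labelled Dmrta2 overexpression against control, all 10 lay above 0 with a median of 0.63, beside 0.00 over all genes, and 0 passed with limma. Msx1, a homeobox target of BMP signalling, passed against both siRNA sets (0.76 ± 0.13, limma adjusted p = 0.0158), and Wnt8b, a hem Wnt ligand, passed there with the block only (0.94 ± 0.26, limma adjusted p = 0.0235). Wnt8b was also lower with set 2 than with control siRNAs with the block only, all 3 arrays lying below all controls (limma, adjusted p = 0.0428).

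Of 9 ventral telencephalic regulators tested, 0 passed with both siRNA sets. Isl1, a gene of striatal neurons, entered the test only through 4 siRNA arrays, and Dlx1 only through 5. No other array was well above background for either gene, so no call is given for them. The list median was 0.01, with 5 of 9 above 0, but both values count Isl1 and Dlx1, so neither is read as a result. Gsx2, the lateral ganglionic eminence regulator, differed by -0.03 ± 0.23. Olig2, well above background on all 12 arrays, differed by 0.96 ± 0.20 (limma, adjusted p = 0.0674, or 0.0619 under the block). In set 1 alone Olig2 differed by 1.34 ± 0.23 and passed with the block only (limma, adjusted p = 0.0508, 0.0495 with it). The gonad and germ cell list had 5 of 10 genes bright enough to test, and 0 passed in any of the 6 comparisons. Of the somite list 4 of 8 were tested. Pax3, which marks the dermomyotome and also the dorsal neural tube, rose with both siRNA sets together (1.38 ± 0.18, limma adjusted p = 0.0119). Set 1 alone passed (1.83 ± 0.21, limma adjusted p = 0.012) and set 2 alone did not (0.92 ± 0.21, limma adjusted p = 0.0767). In the arrays labelled Dmrta2 overexpression Pax3 was lower than in both siRNA sets (-1.38 ± 0.18, limma adjusted p = 0.00368). Against control siRNAs those arrays differed by -0.001 ± 0.209.

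**Figure D4:**
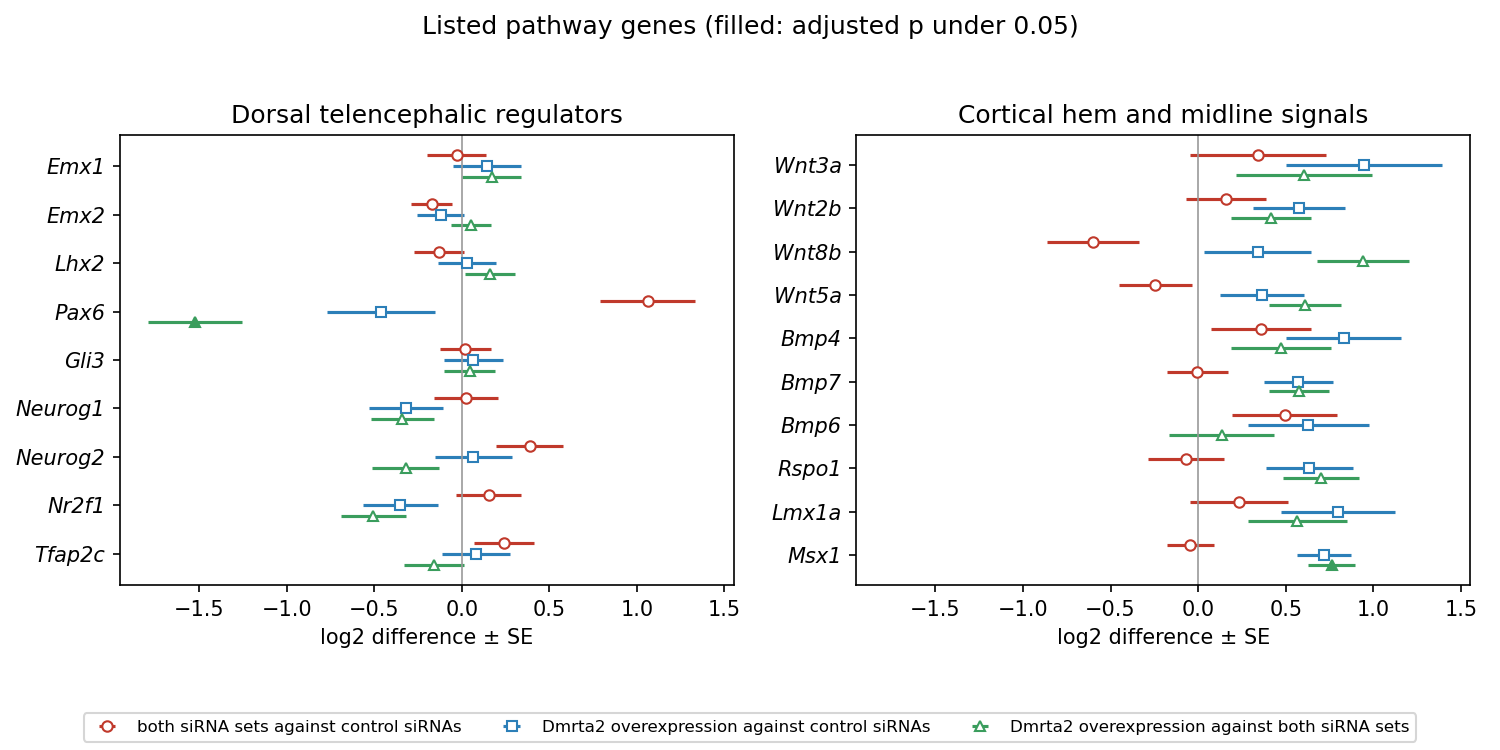
Log2 difference ± SE of 9 dorsal telencephalic regulators and 10 cortical hem and midline genes in 3 comparisons; filled symbols passed an adjusted p under 0.05. Only Pax6 and Msx1, each in the arrays labelled Dmrta2 overexpression against both siRNA sets, are filled.

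Some markers of other cells differed between the groups that carry these results. Of 11 tested microglia and macrophage markers, 4 (Aif1, Cx3cr1, Tyrobp and C1qa) passed with higher signals in both siRNA sets than in control, beside 0.67% of all genes. The list median was 1.13 and 9 of 11 lay above 0, while Csf1r (-0.11 ± 0.47) and Itgam (-0.05 ± 0.31) lay below it. In set 1 alone 0 passed (median 0.63, beside 0.234% of all genes passing). In set 2 alone 6 passed: Aif1, Cx3cr1, Tyrobp, C1qa, C1qc and Trem2 (median 1.63, beside 1.02%). In the arrays labelled Dmrta2 overexpression 4 passed against control: Aif1, Cx3cr1, Tyrobp and C1qc (median 1.55, beside 0.273%). The summed linear level of the list, in multiples of the 75th percentile, was 11.4 to 26.0 with set 1, 13.1 to 25.2 with set 2 and 13.1 to 24.4 in the arrays labelled Dmrta2 overexpression, against 13.8 to 24.7 with control siRNAs. Such a sum is set by its brightest probes. All 6 tested erythroid markers lay above control with both siRNA sets (median 0.85, 0 passed). Alas2 among them was well above background on 0 control arrays, so its place in that count and median is not read as a difference. The erythroid sums were 1.78 to 18.7 with set 1 and 3.49 to 7.94 with set 2. They were 5.28 to 11.0 in the arrays labelled Dmrta2 overexpression, against 1.99 to 3.90 with control siRNAs. The mesenchyme list had a median of 1.87 in set 1, 0.23 in set 2 and 0.345 in the arrays labelled Dmrta2 overexpression. In each, 0 of 4 passed. For the 4 tested endothelial markers the median was 0.29 with both siRNA sets, and 0 passed. Cdh5 among these was well above background on 0 control arrays. Of the 7 neural progenitor markers, 0 passed with both siRNA sets against control. In the arrays labelled Dmrta2 overexpression against both siRNA sets 2 passed, beside 2.15% of all genes. These were Pax6 and Vim (-0.58 ± 0.11, limma adjusted p = 0.024), both lower, while 4 of the 7 lay above 0. The part of all these markers in the Dmrt differences was not tested.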

How the data were processed

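Expression was measured on 12 one-colour Agilent arrays, 3 for each of 4 groups. The intensity used, as deposited by the authors, was each spot's processed signal (Agilent Feature Extraction 10.5.1.1), from which per the file headers background and a spatial trend had been removed. The deposited log2 table, used as an alternative, matched the same signal scaled to the 75th percentile and centred per probe. From the scanner values, control and outlier spots were left out (136 to 218 of 43020 per array), log2 signals were set relative to the 75th percentile of the array, and repeated spots were averaged. The annotation build was mm9; symbols came from RefSeq accessions, and promoters and neighbours from GRCm38.p6. Probes well above background on at least 3 arrays were kept, with the brightest probe per gene. Differences were fitted with limma 3.58.1 in R 4.3.3 over all 12 arrays (8 residual degrees of freedom), two-sided, with Benjamini-Hochberg adjustment over 15369 genes and a threshold of 0.05; the fit was tested on simulated data. The SE is limma's moderated one.

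The named genes were the 8 members, the 5 genes most correlated with each target over 12 arrays, and listed genes past the threshold or else the first tested ones; other listed genes were chosen after their values were seen. One listed gene is not reported here. The members and lists were chosen with earlier results of these data known. The slide equals the replicate number: deviations from group means correlated at 0.0196 to 0.599 between arrays of 1 slide and at -0.516 to 0.212 between slides, so every comparison was also fitted with the slide as a block. Other alternatives were normexp background, quantile normalization, the deposited table, other filters and probe rules, the compared groups alone, and leaving out each array. The planned normexp used median spot intensities and an offset of 50, and spots marked as background outliers were left out of it after the data were seen. The number of arrays limits the precision.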

Additional observations from a re-analysis of the deposited data

How the results depend on the processing

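With the slide as a replicate block, the Dmrt3 difference of both siRNA sets from control (-0.91) passed the threshold, and the members past it became 2 for both siRNA sets, 1 for set 1, 1 for set 2 and 1 for the arrays labelled Dmrta2 overexpression against both sets, from 0 each. The block changed no other count of members. Every other setting that kept all 12 arrays or the compared groups left these counts at 0 and the main values on the same side of 0, with 1 exception: Dmrta2 in the arrays labelled Dmrta2 overexpression against both siRNA sets, near 0, was 0.02 with normexp.

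Leaving out 1 array at a time gave -1.05 to -0.74 for Dmrt3 and -0.56 to -0.38 for Dmrta2 in both siRNA sets, -0.60 to -0.42 for Dmrta2 and -0.24 to 0.12 for Dmrt3 in the arrays labelled Dmrta2 overexpression against control, and -0.67 to -0.31 for Dmrt3 minus Dmrta2. The counts stayed at 0. Dmrt3 in the arrays labelled Dmrta2 overexpression turned to 0.12 without replicate 1 of that label and to 0.09 without control replicate 3. Dmrt1 turned to 0.02 for both sets and 0.05 for set 2 without control replicate 1 (lowest -0.38 and -0.35), Dmrt3 between the sets ran from -0.01 to 0.49, and Dmrta2 in the arrays labelled Dmrta2 overexpression against both sets from -0.12 to 0.03. Dmrta1 for set 2 ran from 0.30, without the second replicate of set 2, to 1.01. The cause of these shifts was not tested beyond the loss of an array. Signal over background limits Dmrt2, Dmrtc1a and Dmrtc2.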
